A study of Mus musculus with 9 samples.

Results

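Steady-state P-SSCs, the skeletal stem cells sorted from the periosteum, were compared with BM-MSCs, the mesenchymal stem cells sorted from the bone marrow, across the genes of a deposited expression table. The members were the 3 P-SSC and 3 BM-MSC libraries, 6 of the 9 libraries sequenced, and those 1786 of the 8329 genes listed that reached 1 FPKM in 3 or more of these 6 libraries. FPKM is the number of sequenced fragments on a gene, divided by the length of its transcripts and by the fragments of the library, so levels can be compared between genes. Both groups were WT mice of strain C57BL/6J at Day 0, without any transplantation, and the remaining 3 libraries, from P-SSCs of bone grafts at Day 3, were left out of the comparison. Cells of both tissues were sorted freshly by one gate, as CD45-Ter119-CD31-CD51+CD200+ cells, which removes most blood and endothelial cells and keeps stromal cells. Periosteum was scraped from bone, cut and digested, while marrow was flushed before digestion, so the tissue and its preparation cannot be told apart in any difference given here. Replicate 2 of each group pooled 2 preparations. The paper states that replicates held RNA of distinct mice, and whether the tissues shared mice is not stated.

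The periosteum is the fibrous sheath on the outer surface of bone, and its stem cells form cartilage and bone when a bone breaks. BM-MSCs sit around the vessels of the marrow, where they give rise to fat and bone cells and produce the signals that hold blood stem cells in place. Both populations can form bone. Genes such as *Cxcl12*, *Kitl*, *Vcam1*, *Lepr*, *Itgav* and *Cd200*, which define the marrow niche or the gate, were not analysed here.

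Of the 1786 genes tested with limma on log2(FPKM + 1), 323 (18.1%) differed at a Benjamini-Hochberg adjusted p under 0.05. Of these, 137 (7.67% of the genes tested) were higher and 186 (10.4%) lower in P-SSCs, and the counts of gene lists given here stand against these shares. Of the 323 genes called, 112 (34.7%) reached 1 FPKM in no library of the lower group, 50 of the higher and 62 of the lower ones. These passed the filter through 1 group alone, so their direction was fixed by it. They include 6 of the 13 transcription factors called, all 6 lower in P-SSCs, 3 of 12 matrix glycoproteins and proteoglycans and 3 of 7 adhesion genes. They also include 3 of 10 acute-phase, serpin and complement genes, 3 of 14 lipid genes and 3 of 5 solute carriers. The libraries of both groups did not overlap for 596 genes (33.4%), with P-SSCs above for 236 (13.2%) and below for 360 (20.2%). The middle of all fold changes, their median, stood at -0.09 (log2) over the genes tested, and it moved to 0.03 when the libraries were scaled by median of ratios, so small differences are read relative to this shift. In what follows, an error after a log2 fold change is its standard error from limma, and levels are listed for replicates 1, 2 and 3 in this order. Every gene was also tested in up to 15 other settings (no filter or a stricter one, other scalings, a replicate block, each library left out and others). Where a named gene changed sides of the threshold in a setting, the end of its paragraph says so with the extreme adjusted p. For genes called and given with their levels, the paragraph also names each library without which the fold change moved by over 1.5 times. Genes not called that moved by more than this without 1 library include *Egr1*, *Gas6*, *Hoxa10*, *Mbp* and *Cilp2*.

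**Figure D1:**
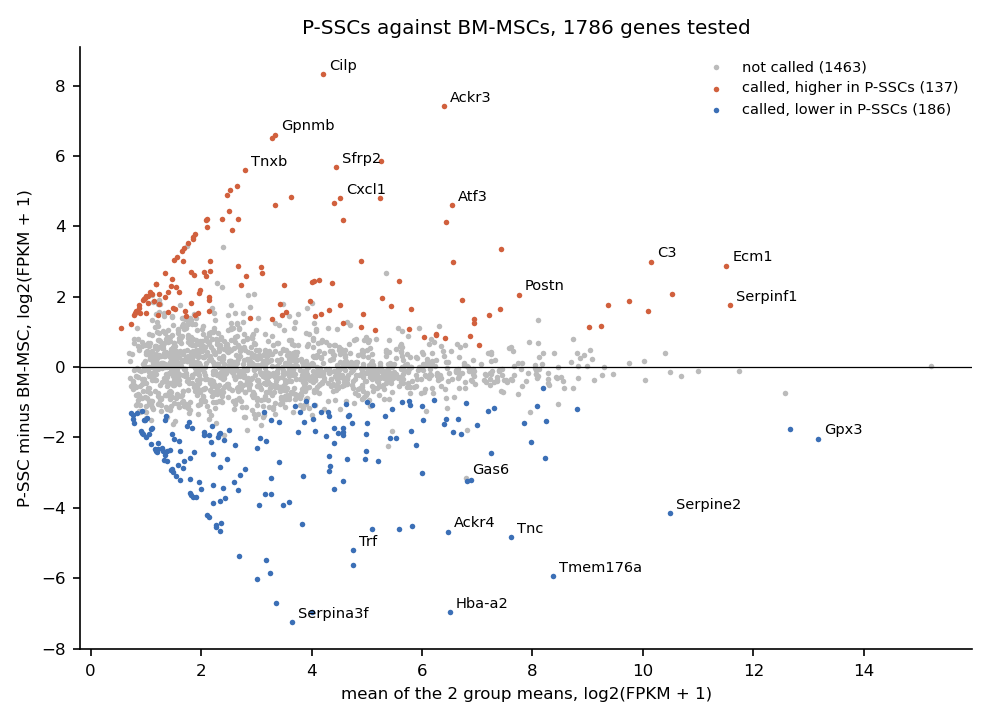
Each point is 1 of the 1786 genes tested, with its mean level on the x axis and its P-SSC minus BM-MSC difference on the y axis, both on the log2(FPKM + 1) scale. The 137 genes called higher in P-SSCs lie above 0 and the 186 called lower lie below, and genes with no fragment in one group lie along the diagonal edges.

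The libraries held between 16890241 and 19756156 fragments, and the genes of the table took between 13.8% and 16.8% of them. Correlations of log2(FPKM + 1) across the genes tested, which are not independent replicates, were 0.941 to 0.956 between BM-MSC libraries. P-SSC replicates 1 and 2 correlated at 0.957, whereas P-SSC replicate 3 correlated with them at 0.867 and 0.854. P-SSC replicate 3 had 189 genes more than 4-fold above the mean of the other P-SSC libraries and 4 genes more than 4-fold below it, on the log2(FPKM + 1) scale. No other library of the 6 had more than 10 genes above or 63 below on the same measure. Without P-SSC replicate 3, 404 genes were called, 156 higher and 248 lower, and 312 of the 323 calls remained. Results that rest on this library are given with its value.

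**Figure D2:**
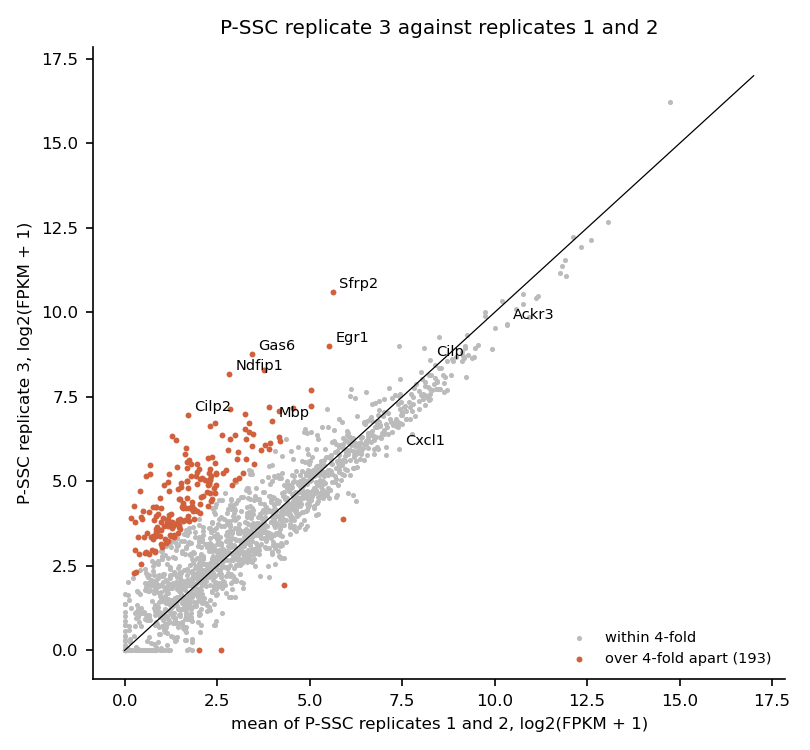
Each point is 1 of the 1786 genes tested, with the mean of P-SSC replicates 1 and 2 on the x axis and P-SSC replicate 3 on the y axis, both as log2(FPKM + 1). The 193 genes more than 4-fold apart lie almost all above the line of equality, among them *Sfrp2*, *Gas6*, *Cilp2*, *Egr1* and *Ndfip1*.

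Marker genes are described next, and they do not test the labels of the tissues. Their lists were written with earlier results of these data known, and *Postn*, *Cilp* and *Trf* were among the markers given for these cells. *Postn* encodes periostin, a matrix protein of the periosteum. It had 451, 476 and 391 FPKM in P-SSCs and 125, 100.5 and 90.6 FPKM in BM-MSCs (log2 fold change 2.06 ± 0.20, adjusted p = 0.000239), and each P-SSC library was above each BM-MSC library. Among the 60 genes written down for tendon, fibroblasts and periosteum, 8 were in the table and 7 were tested. Of these, 6 were higher in P-SSCs and *Gpx3*, an antioxidant enzyme, was lower, beside 7.67% and 10.4% of all genes tested. Among the 6, 2 passed the filter through P-SSCs alone, so their direction was fixed by it. Among 50 genes written down for fat cells and CXCL12-abundant reticular cells, 6 were in the table and 5 were tested, and *Lpl*, *Trf* and *Tmem176a* were lower and none was higher in P-SSCs. *Scd1*, a desaturase of fatty acids on the same list, had 37.7, 22.6 and 16.6 FPKM in P-SSCs and 9.49, 7.69 and 12.3 FPKM in BM-MSCs, with no overlap between the groups, and missed the threshold (adjusted p = 0.052). *Tmem176a*, a membrane protein gene of this list, had 2739, 2698 and 2391 FPKM in BM-MSCs and 53, 35.7 and 36.8 FPKM in P-SSCs (log2 fold change -5.95 ± 0.21, adjusted p = 1.11e-06). Of 39 osteoblast genes 4 were in the table and tested, and 1 was called, as lower in P-SSCs. Of 32 cartilage genes 3 were tested, and *Cilp* alone was called, as higher. The osteoblast call and the cartilage call each passed the filter through 1 group alone, so their direction was fixed by it. *Scd1* passed the threshold without P-SSC replicate 3 and in 4 other settings (adjusted p down to 0.0168).

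Promoter sequences are shown for 6 genes that were higher in P-SSCs, because they code for signals and matrix proteins described below and because most hold the AP-1 letters given below. These genes were chosen after their values were seen. Each line gives the 250 bases before a transcription start of RefSeq on GRCm38.p6, 5′ to 3′ along the gene. Capitals mark matches on either strand to TATAAA (the TATA box), TGANTCA (an AP-1 site), TGACGTCA (the CRE) or 3 G, any 3 bases and TTCC (an NF-kB site), and adjoining capitals can hold overlapping matches. The windows are chr5:90890995-90891244 for *Cxcl1*, chr5:30012864-30013113 for *Il6*, chr11:4257318-4257567 for *Lif*, chr3:121723287-121723536 for *F3*, all on the + strand, chr3:95739570-95739819 on the - strand for *Ecm1*, and chr1:90203730-90203979 on the + strand for *Ackr3*.
Cxcl1: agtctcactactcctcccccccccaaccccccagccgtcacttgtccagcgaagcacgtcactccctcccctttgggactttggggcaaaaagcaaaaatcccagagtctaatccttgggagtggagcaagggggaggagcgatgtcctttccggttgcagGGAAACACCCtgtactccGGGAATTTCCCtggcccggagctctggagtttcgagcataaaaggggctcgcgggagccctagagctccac
Il6: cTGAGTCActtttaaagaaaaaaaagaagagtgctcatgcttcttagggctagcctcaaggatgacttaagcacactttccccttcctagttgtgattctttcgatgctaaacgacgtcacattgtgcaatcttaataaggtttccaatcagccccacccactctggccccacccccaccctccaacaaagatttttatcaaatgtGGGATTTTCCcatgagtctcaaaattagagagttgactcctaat
Lif: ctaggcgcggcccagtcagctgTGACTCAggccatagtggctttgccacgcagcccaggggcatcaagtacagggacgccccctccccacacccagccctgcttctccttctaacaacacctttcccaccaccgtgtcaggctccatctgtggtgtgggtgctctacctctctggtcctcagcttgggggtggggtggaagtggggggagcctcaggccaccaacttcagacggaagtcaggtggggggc
F3: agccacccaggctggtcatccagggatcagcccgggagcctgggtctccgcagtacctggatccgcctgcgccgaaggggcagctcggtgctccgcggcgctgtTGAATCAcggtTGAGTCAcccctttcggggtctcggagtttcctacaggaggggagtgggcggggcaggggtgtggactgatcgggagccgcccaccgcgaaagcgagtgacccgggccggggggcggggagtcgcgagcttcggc
Ecm1: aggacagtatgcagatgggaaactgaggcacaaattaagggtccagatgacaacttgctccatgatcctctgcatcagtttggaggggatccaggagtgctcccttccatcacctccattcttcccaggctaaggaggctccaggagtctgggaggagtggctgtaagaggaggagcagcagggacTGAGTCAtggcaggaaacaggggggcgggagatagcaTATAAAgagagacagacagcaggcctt
Ackr3: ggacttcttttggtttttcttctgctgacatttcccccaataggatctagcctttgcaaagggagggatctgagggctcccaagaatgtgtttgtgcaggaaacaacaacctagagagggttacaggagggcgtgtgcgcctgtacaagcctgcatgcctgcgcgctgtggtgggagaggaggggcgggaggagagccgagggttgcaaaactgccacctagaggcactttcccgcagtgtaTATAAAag
The *Cxcl1* window held 3 overlapping or nearby NF-kB matches, that of *Il6* 1 AP-1 and 1 NF-kB match, and that of *F3* 2 AP-1 matches. Over windows of 300 bases, from 250 before to 50 after each start, TGANTCA occurred in 15.6% of 122 promoters of the genes higher in P-SSCs (96 of 137 genes matched by symbol). It occurred in 6.67% of 165 promoters of the genes lower in P-SSCs (132 of 186 genes matched), in 4.74% of 1456 promoters of genes tested but not called, and in 7.81% of all 32851 promoters. The NF-kB letters occurred in 4.92%, 9.09%, 6.25% and 5.56% of the same groups, and TATAAA in 16.4%, 9.70%, 6.73% and 13.6%. TGACGTCA occurred in 0.82%, 3.03%, 3.50% and 1.79%. A match describes these letters and is not a measured binding site, and any link between the letters and the levels of genes was not tested. The promoters of genes higher in P-SSCs had a median of 13 CG pairs, against 16 for genes lower, 21 for genes not called and 7 for all promoters.

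Secreted proteins are described first, beginning with the matrix. Of 23 matrix glycoproteins and proteoglycans tested, 8 were higher and 4 lower in P-SSCs, and their median log2 fold change was 0.49 against -0.09 for all genes tested. *Cilp*, the cartilage intermediate layer protein of fibrous and cartilage matrix, had 352, 263 and 381 FPKM in P-SSCs and 0.0286, 0.0257 and 0.0397 FPKM in BM-MSCs (log2 fold change 8.32 ± 0.28, adjusted p = 1.11e-06). *Tnxb*, the large tenascin that spaces collagen fibrils, had 48.2, 44.6 and 49.4 FPKM in P-SSCs and 0, 0.00492 and 0 FPKM in BM-MSCs (adjusted p = 2.85e-05). It was represented by 1 fragment in all 3 BM-MSC libraries together. *Thbs3*, a thrombospondin of cartilage and tendon, had 337, 416 and 324 FPKM in P-SSCs and 32, 17 and 14 FPKM in BM-MSCs (log2 fold change 4.11 ± 0.31, adjusted p = 7.96e-05).

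*Ecm1*, which binds perlecan and other matrix proteins, was the second most abundant transcript of the table in P-SSCs, with 7623, 9787 and 6580.2 FPKM in P-SSCs and 1031, 1429.5 and 831 FPKM in BM-MSCs (log2 fold change 2.88 ± 0.27, adjusted p = 0.000212). *Gpnmb*, a transmembrane glycoprotein of bone and phagocytic cells, had 93.6, 57.3 and 177 FPKM in P-SSCs and 0.066, 0 and 0 FPKM in BM-MSCs, with 2 fragments in the BM-MSC libraries and a ratio of 5331 (95% interval 1475 to 44023) that covers counting error only. In these genes and those before them, each P-SSC library was above each BM-MSC library. *Ogn*, osteoglycin, was higher by less, with 347, 277 and 282 FPKM in P-SSCs and 142, 83.8 and 73 FPKM in BM-MSCs (log2 fold change 1.64 ± 0.27, adjusted p = 0.0036). *Lgals1* encodes the lectin galectin-1 and had a log2 fold change of 1.58 ± 0.25 with no overlap between the groups. The single collagen tested was *Col6a3*, a chain of collagen VI, which had 143, 114 and 83.2 FPKM in P-SSCs and 21.5, 20 and 17.2 FPKM in BM-MSCs (log2 fold change 2.45 ± 0.26, adjusted p = 0.000371).

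Other matrix genes went the opposite way. *Tnc*, tenascin C, a glycoprotein of developing and injured tissue, had 1258, 956 and 946 FPKM in BM-MSCs and 36.6, 55.4 and 21.7 FPKM in P-SSCs (log2 fold change -4.84 ± 0.32, adjusted p = 4.19e-05), so the tenascins *Tnc* and *Tnxb* lay on opposite sides. The heparan sulfate proteoglycan gene *Sdc1* had 335, 175 and 224 FPKM in BM-MSCs and 3.85, 4.32 and 35 FPKM in P-SSCs, and P-SSC replicate 3 was the highest of its group. None of the P-SSC libraries reached a BM-MSC library in *Tnc* or *Sdc1*, nor in *Spon1* or *Emilin1*. *Spon1*, an adhesive protein, had 52.2, 48.9 and 41 FPKM in BM-MSCs and 8.08, 2.3 and 17.9 FPKM in P-SSCs (log2 fold change -2.54 ± 0.57, adjusted p = 0.0146). *Emilin1*, a protein of elastic fibres, had a log2 fold change of -1.66 ± 0.22 (adjusted p = 0.0011). The abundant proteoglycan gene *Prelp* had 696, 540.0 and 641 FPKM in P-SSCs and 462, 461 and 409.8 FPKM in BM-MSCs and was not called (adjusted p = 0.118), although its libraries did not overlap. *Spon1* missed the threshold without BM-MSC replicate 1, 2 or 3 and in 1 other setting (adjusted p up to 0.0704). *Prelp* passed the threshold in 1 of the other settings (adjusted p = 0.0374). *Sdc1* had a log2 fold change of -5.54 without P-SSC replicate 3, against -4.60 with all libraries. *Spon1* had a log2 fold change of -1.88 without P-SSC replicate 2 and -3.14 without P-SSC replicate 3.

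Of 9 genes for enzymes that cut or protect matrix, 3 were higher and 1 lower, beside 7.67% higher and 10.4% lower of all genes tested, but 2 of the 3 higher ones, *Plau* and *Adamtsl2*, passed the filter through P-SSCs alone. *Plau*, the urokinase that activates plasminogen, had 14.7, 18.1 and 7.74 FPKM in P-SSCs and no fragment in any BM-MSC library, which makes it at least 456-fold higher against a floor of 3 fragments over the group. *Adamtsl2*, which binds fibrillin, was also without fragments in BM-MSCs and had 2.88, 28 and 12.1 FPKM in P-SSCs, at least 571-fold higher. P-SSC replicate 2 held 1138 of its 1795 fragments, and without that library the bound was 305-fold. Both genes were detected in every P-SSC library, with *Adamtsl2* lowest in replicate 1. *Adamts5*, the aggrecan-cutting protease, had 15.3, 8.73 and 19.6 FPKM in P-SSCs and 1.87, 1.36 and 2.82 FPKM in BM-MSCs (log2 fold change 2.33 ± 0.44, adjusted p = 0.00666). *Cst3*, the cysteine protease inhibitor cystatin C, was lower, with 4149.6, 3552 and 3019 FPKM in P-SSCs against 11693, 13748 and 10768 FPKM in BM-MSCs (log2 fold change -1.76 ± 0.24, adjusted p = 0.00136). *Adamtsl2* had a log2 fold change of 4.29 without P-SSC replicate 1 and 2.84 without P-SSC replicate 2, against 3.51 with all libraries.

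Of 13 acute-phase, serpin and complement genes tested, 4 were higher and 6 lower in P-SSCs, beside 7.67% and 10.4% of all genes tested, with a median log2 fold change of -0.73. *C3*, the central complement component, had 3907, 3905 and 2168 FPKM in P-SSCs and 323, 523 and 383 FPKM in BM-MSCs (log2 fold change 2.99 ± 0.30, adjusted p = 0.000243). *Serpinf1*, the antiangiogenic factor PEDF, had 5963, 6461 and 4514 FPKM in P-SSCs and 1485, 2011 and 1524 FPKM in BM-MSCs (log2 fold change 1.75 ± 0.24, adjusted p = 0.00131). *F3*, tissue factor, which starts coagulation, had 68.6, 67.1 and 213 FPKM in P-SSCs and 4.23, 5.88 and 3.87 FPKM in BM-MSCs (log2 fold change 4.17 ± 0.46, adjusted p = 0.000411) and was not on that list. All P-SSC libraries exceeded all BM-MSC libraries for these genes, and P-SSC replicate 3 was the lowest of its group for *C3* and *Serpinf1* and the highest for *F3*.

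Among the genes of this group that were lower, *Serpine2*, an inhibitor of thrombin and urokinase, had 7448, 5799 and 5126 FPKM in BM-MSCs and 359.7, 308 and 346 FPKM in P-SSCs (log2 fold change -4.16 ± 0.21, adjusted p = 1.14e-05). *Trf*, the iron carrier transferrin, had 195, 161 and 135 FPKM in BM-MSCs and 3.86, 4.45 and 2.3 FPKM in P-SSCs (log2 fold change -5.20 ± 0.30, adjusted p = 1.89e-05). *Serpina3f* had 141, 138 and 181 FPKM in BM-MSCs and 0, 0 and 0.0486 FPKM in P-SSCs, with 2 fragments in P-SSCs and a ratio of 9404 (95% interval 2603 to 77654). Because *Serpina3f* and *Serpina3m* belong to a cluster of near-identical serpin copies, the division of fragments among them is uncertain. The acute-phase genes *Saa3* and *Orm1* were both lower, and each was at 0 FPKM in 2 of the 3 P-SSC libraries. *Saa3* had 11.2, 39.3 and 12.8 FPKM in BM-MSCs and 0, 1.51 and 0 FPKM in P-SSCs (adjusted p = 0.00308), and *Orm1* had 9.4, 13 and 11 FPKM in BM-MSCs and 0.98, 0 and 0 FPKM in P-SSCs (adjusted p = 0.0012). *Serping1*, the C1 inhibitor, had 7633, 9554 and 6603 FPKM in BM-MSCs and 4863, 5567 and 3874 FPKM in P-SSCs and missed the threshold (adjusted p = 0.0916). *Serping1* passed the threshold in 3 of the other settings (adjusted p down to 0.0143).

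**Figure D3:**
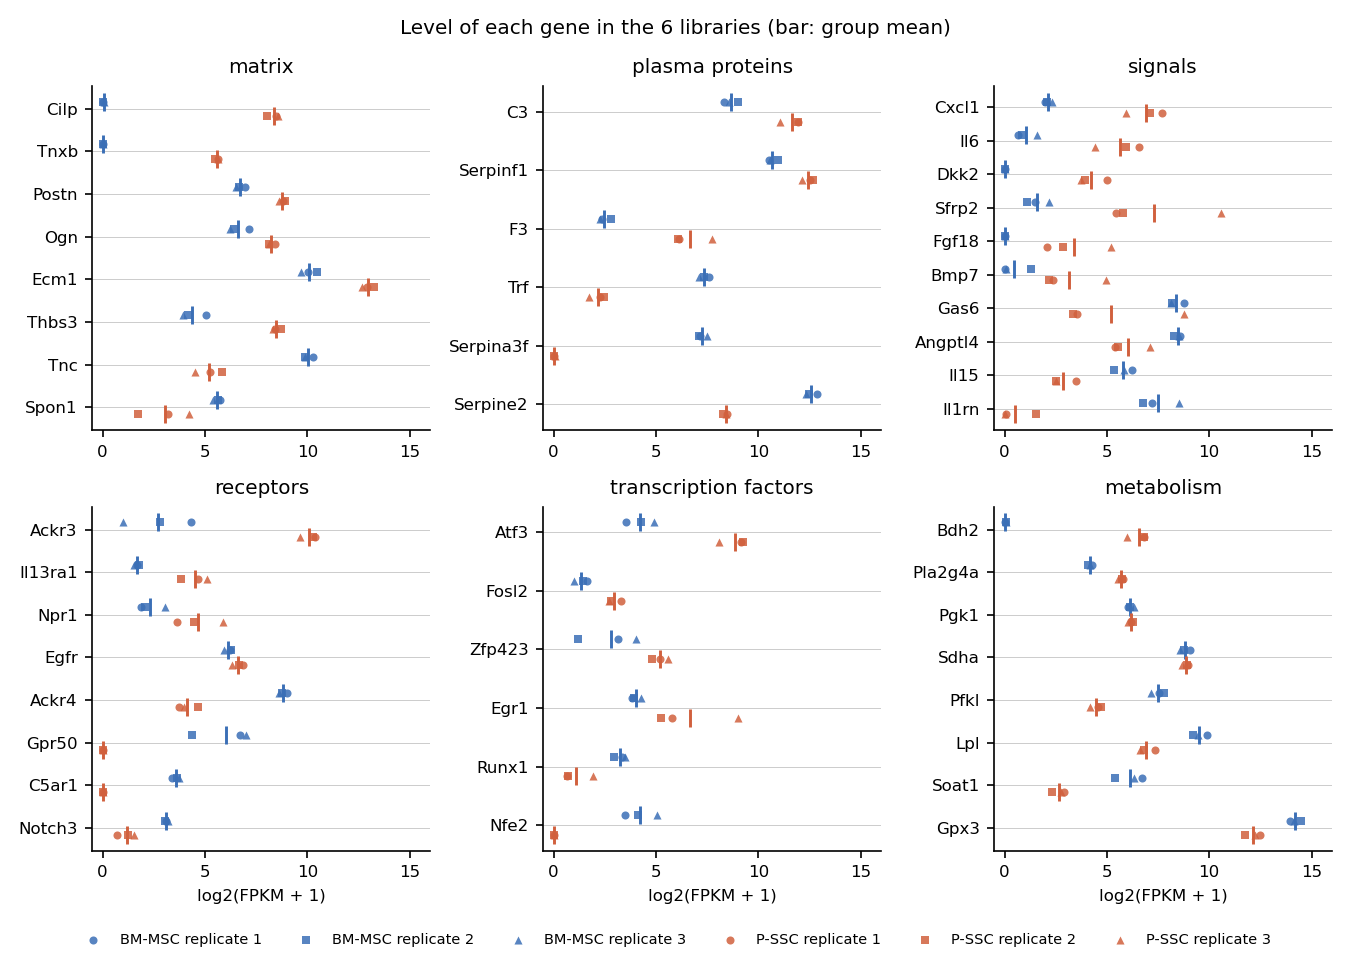
Each marker is the level of 1 gene in 1 library as log2(FPKM + 1), with BM-MSCs in blue, P-SSCs in orange, a symbol for each replicate and a bar at the group mean. Matrix genes from *Cilp* to *Thbs3* and plasma protein genes *C3*, *Serpinf1* and *F3* lie higher in all P-SSC libraries, whereas *Sfrp2*, *Gas6*, *Egr1*, *Bmp7* and *Fgf18* show P-SSC replicate 3 apart from the other replicates.

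Of 3 chemokine genes tested 1 was called. *Cxcl1*, which attracts neutrophils, had 209, 137 and 60.8 FPKM in P-SSCs and 2.98, 3.16 and 3.92 FPKM in BM-MSCs (log2 fold change 4.81 ± 0.44, adjusted p = 0.000172). *Il6*, a cytokine of inflammation, bone turnover and blood formation, had 92.8, 60 and 20.3 FPKM in P-SSCs and 0.604, 0.792 and 2.02 FPKM in BM-MSCs (log2 fold change 4.59 ± 0.57, adjusted p = 0.000801). In both genes the P-SSC libraries were all above the BM-MSC libraries, and P-SSC replicate 1 was the highest and replicate 3 the lowest. *Lif*, a cytokine of the IL-6 family, had 2.07, 1.65 and 2.92 FPKM in P-SSCs and 0.324, 0 and 0 FPKM in BM-MSCs (log2 fold change 1.53 ± 0.34, adjusted p = 0.0138). *Lif* missed the threshold without BM-MSC replicate 2 or 3 (adjusted p up to 0.0585). *Il6* had a log2 fold change of 5.20 without P-SSC replicate 3.

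The remaining cytokine-type ligands that were called were lower in P-SSCs, so that 2 of 6 such genes were higher and 3 lower. The directions of 2 of these calls were fixed by the filter, as *Lif* passed it through P-SSCs alone and *Tnfsf13* through BM-MSCs alone. *Il1rn*, the secreted antagonist of the IL-1 receptor, had 144, 106 and 368 FPKM in BM-MSCs and 0.0349, 1.94 and 0 FPKM in P-SSCs (log2 fold change -6.95 ± 0.58, adjusted p = 0.000132). *Il15*, which sustains natural killer cells and memory T cells, had 74, 39.3 and 56.4 FPKM in BM-MSCs and 10.4, 4.66 and 4.78 FPKM in P-SSCs (log2 fold change -2.95 ± 0.38, adjusted p = 0.00101). *Tnfsf13* (APRIL), a survival factor of plasma cells, had 2.2, 3.32 and 1.69 FPKM in BM-MSCs and 0.417, 0.31 and 0 FPKM in P-SSCs (log2 fold change -1.44 ± 0.36, adjusted p = 0.0237). P-SSCs thus had more RNA of *Il6*, *Lif* and *Cxcl1* and less of *Il15*, *Il1rn* and *Tnfsf13*. *Tnfsf13* missed the threshold without BM-MSC replicate 1 or 2 or P-SSC replicate 1 and in 2 other settings (adjusted p up to 0.0715).

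Of 8 growth factor genes tested, 3 were higher and 2 lower, beside 7.67% and 10.4% of all genes tested. *Hbegf*, a ligand of the EGF receptor, had 11.8, 11.5 and 3.57 FPKM in P-SSCs and 1.17, 0.112 and 0.346 FPKM in BM-MSCs (log2 fold change 2.61 ± 0.53, adjusted p = 0.0098). *Ntf3*, the neurotrophin NT-3, had 15, 8.52 and 6.76 FPKM in P-SSCs and 1.56, 0.717 and 0 FPKM in BM-MSCs (log2 fold change 2.69 ± 0.50, adjusted p = 0.0064). The groups did not overlap in *Hbegf* or *Ntf3*. *Fgf18*, a growth factor of bone and cartilage, had 3.27, 6.18 and 36 FPKM in P-SSCs and no fragment in BM-MSCs, at least 284-fold higher over the group, with 710 of its 891 fragments in P-SSC replicate 3 and a bound of 86.8-fold without it. Of 5 TGF-beta family genes tested 1 was higher and 1 lower. *Gdf9*, a growth factor best known from the oocyte, had 12.5, 16.9 and 8.33 FPKM in BM-MSCs and 1.05, 1.95 and 2.73 FPKM in P-SSCs (log2 fold change -2.21 ± 0.44, adjusted p = 0.00848). *Bmp7* had 4.14, 3.56 and 30.2 FPKM in P-SSCs and 0.0255, 1.46 and 0.0471 FPKM in BM-MSCs (log2 fold change 2.70 ± 0.77, adjusted p = 0.0426), again highest in P-SSC replicate 3. Without that library the log2 fold change of *Fgf18* was 2.47 ± 0.37 (adjusted p = 0.00189), against 3.38 ± 0.74 with it. That of *Bmp7* was 1.81 ± 0.47 (adjusted p = 0.0265). *Hbegf* missed the threshold without BM-MSC replicate 2 (adjusted p = 0.0512). *Fgf18* missed the threshold without BM-MSC replicate 1, 2 or 3 and in 1 other setting (adjusted p up to 0.0599). *Bmp7* missed the threshold without BM-MSC replicate 1, 2 or 3 or P-SSC replicate 1 and in 4 other settings (adjusted p up to 0.159). *Fgf18* had a log2 fold change of 4.03 without P-SSC replicate 1.

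*Angptl4*, a secreted inhibitor of lipoprotein lipase, had 380.4, 312 and 364 FPKM in BM-MSCs and 41.2, 45.9 and 139 FPKM in P-SSCs (log2 fold change -2.43 ± 0.42, adjusted p = 0.00458), and P-SSC replicate 3 was the highest of its group. *Wisp1*, a matricellular target of Wnt signals, had 27.9, 35.5 and 75.2 FPKM in BM-MSCs and 11.5, 15.6 and 9.57 FPKM in P-SSCs (log2 fold change -1.73 ± 0.40, adjusted p = 0.0166). *Gas6*, the ligand of the receptors AXL and MERTK, had 441, 286 and 284 FPKM in BM-MSCs and 10.8, 9.13 and 432 FPKM in P-SSCs. P-SSC replicates 1 and 2 were far below every BM-MSC library while P-SSC replicate 3 was among them, and the gene was not called (adjusted p = 0.129). Without P-SSC replicate 3 the log2 fold change of *Gas6* was -4.92 ± 0.26 (adjusted p = 1.06e-05). *Wisp1* missed the threshold without BM-MSC replicate 2 or 3 or P-SSC replicate 1 (adjusted p up to 0.0573). *Gas6* passed the threshold without P-SSC replicate 3 (adjusted p = 1.06e-05).

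All 3 Wnt genes tested were called, 2 higher and 1 lower, beside 7.67% and 10.4% of all genes tested. *Dkk2*, a secreted antagonist of the Wnt coreceptors, had 31.1, 14.1 and 12.2 FPKM in P-SSCs and no fragment in BM-MSCs, at least 1295-fold higher. *Sfrp2*, which binds Wnt proteins outside the cell, had 42.7, 55.1 and 1551 FPKM in P-SSCs and 1.84, 1.17 and 3.53 FPKM in BM-MSCs (log2 fold change 5.68 ± 1.19, adjusted p = 0.0108), and the level of P-SSC replicate 3 set most of the group mean. Without that library its log2 fold change was 4.03 ± 0.42 (adjusted p = 0.000281). *Porcn*, the enzyme that attaches the fatty acid Wnt proteins need for secretion, had 83.6, 66.9 and 65.6 FPKM in BM-MSCs and 8.19, 3.82 and 9.56 FPKM in P-SSCs (log2 fold change -3.23 ± 0.35, adjusted p = 0.000383). *Dkk2* passed the filter through P-SSCs alone, so its direction was fixed by it, and the size of the *Sfrp2* difference rests in part on P-SSC replicate 3. *Sfrp2* missed the threshold without BM-MSC replicate 1 or 2 and in 2 other settings (adjusted p up to 0.362). *Sfrp2* had a log2 fold change of 6.603 without P-SSC replicate 1 and 6.42 without P-SSC replicate 2.

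*C1qtnf1*, a secreted protein of the C1q and TNF-related family, had 331, 231 and 242 FPKM in P-SSCs and 26.2, 49.5 and 27.1 FPKM in BM-MSCs (log2 fold change 2.98 ± 0.29, adjusted p = 0.000243). *Sema5a*, a transmembrane guidance protein of axons, had 14.3, 9.31 and 15.3 FPKM in BM-MSCs and 0.549, 1.01 and 1.22 FPKM in P-SSCs (log2 fold change -2.84 ± 0.41, adjusted p = 0.00169). *C1qtnf1* was thus higher and *Sema5a* lower in all P-SSC libraries. *Kcp*, a secreted modulator of BMP signals, had 24.1, 41.3 and 31.6 FPKM in P-SSCs and 0, 0.0221 and 0 FPKM in BM-MSCs, with 1 fragment in BM-MSCs and a ratio of 4153 (95% interval 745 to 164059). Of 30 genes written down for the support of blood stem cells, 5 were in the table and 3 were tested, and *Lpl* and *Trf*, a lipase and an iron carrier, were lower and none was higher in P-SSCs.

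Among receptors, the chemokine receptor list had 4 genes tested, of which 1 was higher and 2 lower. *Ackr3*, an atypical receptor that takes up CXCL12, had 1317, 1244 and 812 FPKM in P-SSCs and 18.6, 6.01 and 0.98 FPKM in BM-MSCs (log2 fold change 7.41 ± 0.70, adjusted p = 0.000212). *Ackr4*, which scavenges CCL19, CCL21 and CCL25, had 515, 433 and 396 FPKM in BM-MSCs and 12.1, 24.5 and 15 FPKM in P-SSCs (log2 fold change -4.68 ± 0.28, adjusted p = 2.19e-05). The scavenging receptor genes higher in each tissue were thus different ones, each with all 3 of its libraries above the other group. *Ackr3* had a log2 fold change of 8.21 without BM-MSC replicate 1 and 6.55 without BM-MSC replicate 3.

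*C5ar1*, the receptor of the complement fragment C5a, had 9.51, 11.3 and 12.2 FPKM in BM-MSCs and no fragment in P-SSCs, at least 396-fold lower. *Gpr50*, an orphan relative of the melatonin receptors, had 104, 19.3 and 126 FPKM in BM-MSCs and no fragment in P-SSCs, at least 2148-fold lower. It was the only one of 9 other G protein-coupled receptor genes to be called, beside 18.1% of all genes tested. *C5ar1* and *Gpr50* passed the filter through BM-MSCs alone, so their direction was fixed by it. *Il13ra1*, a subunit of the IL-13 receptor, had 24, 13 and 33 FPKM in P-SSCs and 2.17, 2.38 and 1.93 FPKM in BM-MSCs (log2 fold change 2.86 ± 0.42, adjusted p = 0.00209). All P-SSC libraries were above all BM-MSC libraries in *Il13ra1*. *Il6st*, the gp130 subunit through which IL-6 and LIF signal, had 142, 74.4 and 156 FPKM in P-SSCs and 64.9, 28.8 and 72.8 FPKM in BM-MSCs and missed the threshold (adjusted p = 0.0851). *Npr1*, the receptor of atrial natriuretic peptide, had 11.4, 21.1 and 58.6 FPKM in P-SSCs and 2.67, 3.2 and 7.22 FPKM in BM-MSCs (log2 fold change 2.34 ± 0.60, adjusted p = 0.028). *Il6st* passed the threshold in 4 of the other settings (adjusted p down to 0.00847). *Npr1* missed the threshold without BM-MSC replicate 1 or 2 or P-SSC replicate 2 and in 2 other settings (adjusted p up to 0.127). *Gpr50* had a log2 fold change of -6.85 without BM-MSC replicate 2, against -6.02 with all libraries. *Npr1* had a log2 fold change of 1.72 without P-SSC replicate 3.

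None of 4 receptor tyrosine kinase genes was called. *Egfr*, the receptor of HB-EGF, had 114, 98.9 and 79.7 FPKM in P-SSCs and 73, 77.5 and 59.2 FPKM in BM-MSCs (log2 fold change 0.47 ± 0.23, adjusted p = 0.22). Of 6 receptors for developmental signals, 2 were lower. *Notch3*, the Notch receptor of mural cells, had 7.62, 7.13 and 8.01 FPKM in BM-MSCs and 0.642, 1.39 and 1.91 FPKM in P-SSCs (log2 fold change -1.93 ± 0.41, adjusted p = 0.0111), while its relative *Notch2* had 6.92, 6.96 and 16.9 FPKM in P-SSCs and 1.87, 2 and 4.25 FPKM in BM-MSCs and was not called (adjusted p = 0.0633). The Wnt receptor gene *Fzd5* had 1.21, 2.14 and 1.56 FPKM in BM-MSCs and 0.0826, 0.0459 and 0.0322 FPKM in P-SSCs (log2 fold change -1.31 ± 0.31, adjusted p = 0.0184). *Notch3* missed the threshold without P-SSC replicate 1 (adjusted p = 0.054). *Notch2* passed the threshold in 6 of the other settings (adjusted p down to 0.0168). *Fzd5* missed the threshold without BM-MSC replicate 2 or P-SSC replicate 1 and in 2 other settings (adjusted p up to 0.0609).

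Of 15 adhesion genes, 3 were higher and 4 lower, beside 7.67% and 10.4% of all genes tested. *Cadm3*, an adhesion protein first described in neurons, had 9.92, 24.1 and 17.1 FPKM in P-SSCs and 0.246, 0.0441 and 0 FPKM in BM-MSCs (log2 fold change 3.97 ± 0.45, adjusted p = 0.000455). *Pvr* and *Nectin2* encode related nectin proteins and went opposite ways. *Pvr* had 22.5, 19.7 and 9.84 FPKM in P-SSCs and 1.16, 4.01 and 1.18 FPKM in BM-MSCs (log2 fold change 2.60 ± 0.51, adjusted p = 0.00745), and *Nectin2* had 30.3, 60.1 and 37 FPKM in BM-MSCs and 4.57, 4.28 and 3.04 FPKM in P-SSCs (log2 fold change -3.09 ± 0.36, adjusted p = 0.00051). Neither gene overlapped between the groups. *Cldn1*, a claudin of tight junctions, had 25.2, 16.4 and 20.3 FPKM in BM-MSCs and 0.671, 1.66 and 0.512 FPKM in P-SSCs (log2 fold change -3.50 ± 0.41, adjusted p = 0.000582). *Cav1*, the main protein of caveolae, was on no list and had 220.1, 135 and 262 FPKM in P-SSCs and 9.79, 8.9 and 2.31 FPKM in BM-MSCs (log2 fold change 4.82 ± 0.48, adjusted p = 0.000243).

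The table marks 103 of the genes tested as transcription factors, and of these 5 were higher and 8 lower, beside 7.67% and 10.4% of all genes tested, with a median log2 fold change of -0.07. Of the 8 lower ones, 6 passed the filter through BM-MSCs alone, so their direction was fixed by it. The factors lower in P-SSCs include *Nfe2* and *Spi1* of blood cells, and the part of blood RNA, higher in BM-MSCs, in this count was not tested. Of 40 genes of the Zfp family 1 was called, and of 2 Hox genes tested none. *Hoxa10*, a factor of limb position, had 28.5, 26.5 and 22.1 FPKM in BM-MSCs and 10.6, 8.8 and 38.8 FPKM in P-SSCs (adjusted p = 0.449), with P-SSC replicate 3 above and the other P-SSC libraries below all BM-MSC libraries. *Hoxa10* passed the threshold without P-SSC replicate 3 (adjusted p = 0.013).

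The 2 called genes of the 4 immediate early genes were both higher in P-SSCs. *Atf3*, a stress-induced factor, had 577, 611 and 271 FPKM in P-SSCs and 10.7, 18.1 and 28.6 FPKM in BM-MSCs (log2 fold change 4.61 ± 0.41, adjusted p = 0.000172). *Fosl2*, a subunit of AP-1, had 8.76, 6.07 and 5.44 FPKM in P-SSCs and 2.08, 1.73 and 0.982 FPKM in BM-MSCs (log2 fold change 1.58 ± 0.41, adjusted p = 0.0293). *Egr1*, induced by serum and strain, had 54, 37.3 and 514 FPKM in P-SSCs and 13, 14.3 and 18.6 FPKM in BM-MSCs, with all P-SSC libraries above all BM-MSC libraries, and missed the threshold (adjusted p = 0.0618). Immediate early genes respond within minutes to handling of tissue, and the part of the different dissociation of periosteum and marrow in these values was not tested. *Fosl2* missed the threshold without BM-MSC replicate 1, 2 or 3 or P-SSC replicate 1 or 2 and in 1 other setting (adjusted p up to 0.111). *Egr1* passed the threshold without P-SSC replicate 2 or 3 and in 4 other settings (adjusted p down to 0.0084). Its log2 fold change was 3.38 without P-SSC replicate 2 and 1.51 without P-SSC replicate 3, against 2.67 with all libraries.

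Among 10 factors of the skeletal lineage, 1 was higher and 3 lower, beside 7.67% and 10.4% of all genes tested. Of the 3 lower ones, 2 passed the filter through BM-MSCs alone, so their direction was fixed by it. *Zfp423*, a factor of preadipocytes, had 35.8, 27.1 and 47.8 FPKM in P-SSCs and 7.98, 1.31 and 15.5 FPKM in BM-MSCs (log2 fold change 2.40 ± 0.66, adjusted p = 0.0354). *Runx1* and *Dlx6* were lower in all P-SSC libraries. *Runx1*, a factor of blood stem cells and early skeletal cells, had 9.04, 6.63 and 10.2 FPKM in BM-MSCs and 0.585, 0.651 and 2.82 FPKM in P-SSCs (log2 fold change -2.14 ± 0.48, adjusted p = 0.015). *Dlx6*, a homeobox factor of bone, had 3.71, 2.14 and 3.85 FPKM in BM-MSCs and 0.237, 0.738 and 0.887 FPKM in P-SSCs (log2 fold change -1.38 ± 0.39, adjusted p = 0.0394). *Twist1*, which holds back osteoblast maturation, had 1.71, 2.28 and 3.17 FPKM in P-SSCs and 0.909, 1.89 and 2.79 FPKM in BM-MSCs and was not called (adjusted p = 0.748). *Zfp423* missed the threshold without BM-MSC replicate 1 or P-SSC replicate 1, 2 or 3 and in 3 other settings (adjusted p up to 0.11). *Runx1* missed the threshold without BM-MSC replicate 1 or 3 or P-SSC replicate 1 or 2 (adjusted p up to 0.0651). *Dlx6* missed the threshold without BM-MSC replicate 1, 2 or 3 or P-SSC replicate 1 or 2 and in 4 other settings (adjusted p up to 0.157). *Zfp423* had a log2 fold change of 1.60 without BM-MSC replicate 2 and 3.02 without BM-MSC replicate 3.

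Of 25 further developmental factors tested, 1 was higher and 4 lower, beside 7.67% and 10.4% of all genes tested. Of the 4 lower ones, 3 passed the filter through BM-MSCs alone, so their direction was fixed by it. *Zhx3*, a zinc finger and homeobox factor, had 7.19, 5.22 and 10.7 FPKM in P-SSCs and 0.633, 0.363 and 1.91 FPKM in BM-MSCs (log2 fold change 2.18 ± 0.47, adjusted p = 0.0123). *Id4* had 2.2, 1.71 and 1.57 FPKM in BM-MSCs and 0.171, 0.0439 and 0.178 FPKM in P-SSCs (log2 fold change -1.32 ± 0.31, adjusted p = 0.0179), whereas its relative *Id3* had 1763, 2006 and 1688 FPKM in BM-MSCs and 1679, 2230.5 and 936 FPKM in P-SSCs and was not called (adjusted p = 0.669). *Snai1*, a repressor of epithelial genes, had 11.3, 12.7 and 14.3 FPKM in BM-MSCs and 4.06, 5.97 and 4.06 FPKM in P-SSCs (log2 fold change -1.29 ± 0.35, adjusted p = 0.0361). *Nfe2*, a factor of red cell and platelet precursors, had 10.3, 16.2 and 31.8 FPKM in BM-MSCs and no fragment in P-SSCs, at least 436-fold lower. *Zhx3* missed the threshold without BM-MSC replicate 1 or 2 (adjusted p up to 0.0602). *Id4* missed the threshold without BM-MSC replicate 1 or P-SSC replicate 1 and in 1 other setting (adjusted p up to 0.0593). *Snai1* missed the threshold without BM-MSC replicate 1, 2 or 3 or P-SSC replicate 1 and in 3 other settings (adjusted p up to 0.126).

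Metabolic genes were counted by pathway, beside 18.1% called of all genes tested. Of 9 genes of glycolysis and glucose uptake, 2 were lower and none higher, with a median log2 fold change of -0.29. *Pfkl*, the liver-type phosphofructokinase, had 186, 221 and 142 FPKM in BM-MSCs and 22.3, 25.1 and 17.3 FPKM in P-SSCs (log2 fold change -3.02 ± 0.25, adjusted p = 0.000132). *Bpgm*, which makes the bisphosphoglycerate that loosens oxygen from haemoglobin and is best known from red cells, had 30, 33.6 and 62.4 FPKM in BM-MSCs and 15.5, 14.2 and 14.4 FPKM in P-SSCs (log2 fold change -1.38 ± 0.32, adjusted p = 0.0182). The glycolytic enzyme *Pgk1* had 63.8, 69.2 and 78.2 FPKM in BM-MSCs and 72.6, 75.7 and 65.5 FPKM in P-SSCs, and the glucose transporter gene *Slc2a1* had 38.6, 32.4 and 27.8 FPKM in BM-MSCs and 36.8, 32.7 and 24.1 FPKM in P-SSCs. The libraries of both groups overlapped in these 2 genes, with log2 fold changes of 0.02 ± 0.20 and -0.08 ± 0.27. *Bpgm* missed the threshold without BM-MSC replicate 3 or P-SSC replicate 1 or 2 (adjusted p up to 0.0604).

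In mitochondria, *Idh2*, the isocitrate dehydrogenase that makes NADPH, had 194, 134 and 125 FPKM in BM-MSCs and 31, 41.5 and 81 FPKM in P-SSCs (log2 fold change -1.63 ± 0.36, adjusted p = 0.0136), and the other 3 citrate cycle genes tested were not called. *Sdha*, which serves both the cycle and the respiratory chain, had 529.6, 442 and 383 FPKM in BM-MSCs and 499.9, 483 and 406 FPKM in P-SSCs (log2 fold change 0.04 ± 0.20). Of 14 respiratory chain and ATP synthase genes 2 were lower and none higher, and their median log2 fold change was -0.40. *Cox4i2*, the cytochrome oxidase isoform of hypoxic and mural cells, had 39.6, 64.7 and 32.8 FPKM in BM-MSCs and 6.03, 18.2 and 6.63 FPKM in P-SSCs (log2 fold change -2.15 ± 0.45, adjusted p = 0.0108). *Ndufa3*, a subunit of complex I, had 369.7, 434 and 393 FPKM in BM-MSCs and 186, 281 and 120.1 FPKM in P-SSCs (log2 fold change -1.11 ± 0.30, adjusted p = 0.0333). None of 14 ribosomal protein genes was called, and their median log2 fold change was 0.10. *Idh2* missed the threshold without BM-MSC replicate 1 or 2 or P-SSC replicate 2 (adjusted p up to 0.0685). *Cox4i2* missed the threshold without BM-MSC replicate 2 (adjusted p = 0.058). *Ndufa3* missed the threshold without BM-MSC replicate 1, 2 or 3 or P-SSC replicate 1 and in 3 other settings (adjusted p up to 0.123).

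Of 18 glutathione and antioxidant genes, 4 were lower and none higher. *Gpx3*, the secreted glutathione peroxidase, was the second most abundant transcript of the table in BM-MSCs, with 15742, 22733 and 17856 FPKM in BM-MSCs and 5708, 3407 and 4778 FPKM in P-SSCs (log2 fold change -2.03 ± 0.29, adjusted p = 0.00169). *Akr1c13*, an aldo-keto reductase, had 89.8, 55.6 and 42.1 FPKM in BM-MSCs and 0, 1.49 and 0 FPKM in P-SSCs (log2 fold change -5.48 ± 0.50, adjusted p = 0.000172). All BM-MSC libraries were above all P-SSC libraries in *Gpx3* and *Akr1c13*, as they were in the next gene. *Msra*, which repairs oxidized methionine, had 18.7, 26.6 and 17.7 FPKM in BM-MSCs and 10.2, 7.54 and 6.3 FPKM in P-SSCs (log2 fold change -1.29 ± 0.33, adjusted p = 0.029). The intracellular peroxidase gene *Gpx1* had 853, 1077 and 1768 FPKM in BM-MSCs and 1605, 1880.5 and 1223 FPKM in P-SSCs, and *Prdx1* had 817, 708 and 734 FPKM in BM-MSCs and 686, 804 and 524 FPKM in P-SSCs. Neither was called, and the groups overlapped in both. *Msra* missed the threshold without BM-MSC replicate 1, 2 or 3 or P-SSC replicate 2 and in 2 other settings (adjusted p up to 0.114).

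Lipid genes were called in equal numbers in each direction, 7 higher and 7 lower of 32 tested, with a median log2 fold change of -0.05. *Fdft1*, the squalene synthase of the cholesterol pathway, had 34.9, 35.4 and 14.9 FPKM in P-SSCs and 11.2, 8.04 and 8.38 FPKM in BM-MSCs (log2 fold change 1.44 ± 0.39, adjusted p = 0.0349). *Pla2g4a*, the phospholipase that releases arachidonic acid, had 54.3, 52.2 and 45.6 FPKM in P-SSCs and 18.1, 16 and 17.2 FPKM in BM-MSCs (log2 fold change 1.51 ± 0.23, adjusted p = 0.00249). In both genes all P-SSC libraries were above all BM-MSC libraries. *Fdft1* missed the threshold without BM-MSC replicate 1, 2 or 3 or P-SSC replicate 1 or 2 and in 3 other settings (adjusted p up to 0.145).

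*Cyp26a1*, which degrades retinoic acid, had 4.03, 1.4 and 3.95 FPKM in P-SSCs and no fragment in BM-MSCs, at least 101-fold higher. *Bdh2*, a dehydrogenase of ketone body and siderophore metabolism, was on no list and had 112, 113 and 63.1 FPKM in P-SSCs and 0, 0.0344 and 0.0354 FPKM in BM-MSCs, with 2 fragments in BM-MSCs and a ratio of 3996 (95% interval 1106 to 32999).

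Lipid genes lower in P-SSCs included *Lpl*, *Soat1* and *Fabp5*. *Lpl*, lipoprotein lipase, had 939, 589.7 and 705 FPKM in BM-MSCs and 164, 110.2 and 95.8 FPKM in P-SSCs (log2 fold change -2.60 ± 0.27, adjusted p = 0.000282). *Soat1*, which esterifies cholesterol for storage, had 103, 41.3 and 78.1 FPKM in BM-MSCs and 6.42, 4.07 and 5.76 FPKM in P-SSCs (log2 fold change -3.47 ± 0.38, adjusted p = 0.000407). *Fabp5*, a fatty acid carrier, had 10.7, 8.96 and 8.93 FPKM in BM-MSCs and 1.85, 3.23 and 1.35 FPKM in P-SSCs (log2 fold change -1.78 ± 0.41, adjusted p = 0.0159). These genes were higher in all BM-MSC libraries. *Fabp5* missed the threshold without BM-MSC replicate 1, 2 or 3 or P-SSC replicate 1 (adjusted p up to 0.0723).

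Of 22 solute carrier genes, 3 were higher and 2 lower, beside 7.67% and 10.4% of all genes tested. The directions of 2 higher and 1 lower of these calls were fixed by the filter, as they passed it through 1 group alone. *Slc43a3*, a transporter of purine bases, had 518, 652 and 493 FPKM in P-SSCs and 63, 32.9 and 69.1 FPKM in BM-MSCs (log2 fold change 3.37 ± 0.30, adjusted p = 0.000171). *Slc6a2*, the noradrenaline transporter, had 7.29, 6.94 and 3.13 FPKM in P-SSCs and 0.301, 0.331 and 0.351 FPKM in BM-MSCs (log2 fold change 2.29 ± 0.41, adjusted p = 0.00552). *Slc26a7*, an anion exchanger, had 149.9, 63.5 and 118 FPKM in BM-MSCs and 0, 0 and 0.0304 FPKM in P-SSCs, with 1 fragment in P-SSCs and a ratio of 10663 (95% interval 1913 to 421194). *Slc26a7* and the next gene were abundant in all BM-MSC libraries and at or near 0 or low in P-SSCs. *Slc40a1*, the iron exporter ferroportin, had 413, 152 and 108 FPKM in BM-MSCs and 3.25, 2.09 and 3.34 FPKM in P-SSCs (log2 fold change -5.63 ± 0.47, adjusted p = 0.000132). Of 10 enzymes of pentose phosphate, one-carbon, nucleotide and amino acid metabolism, *Bcat1*, a branched-chain transaminase, was the only one called, with 50, 35.2 and 40.6 FPKM in BM-MSCs and 6.47, 19.1 and 9.72 FPKM in P-SSCs (log2 fold change -1.86 ± 0.39, adjusted p = 0.0108). *Bcat1* missed the threshold without BM-MSC replicate 1 (adjusted p = 0.0597).

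**Figure D4:**
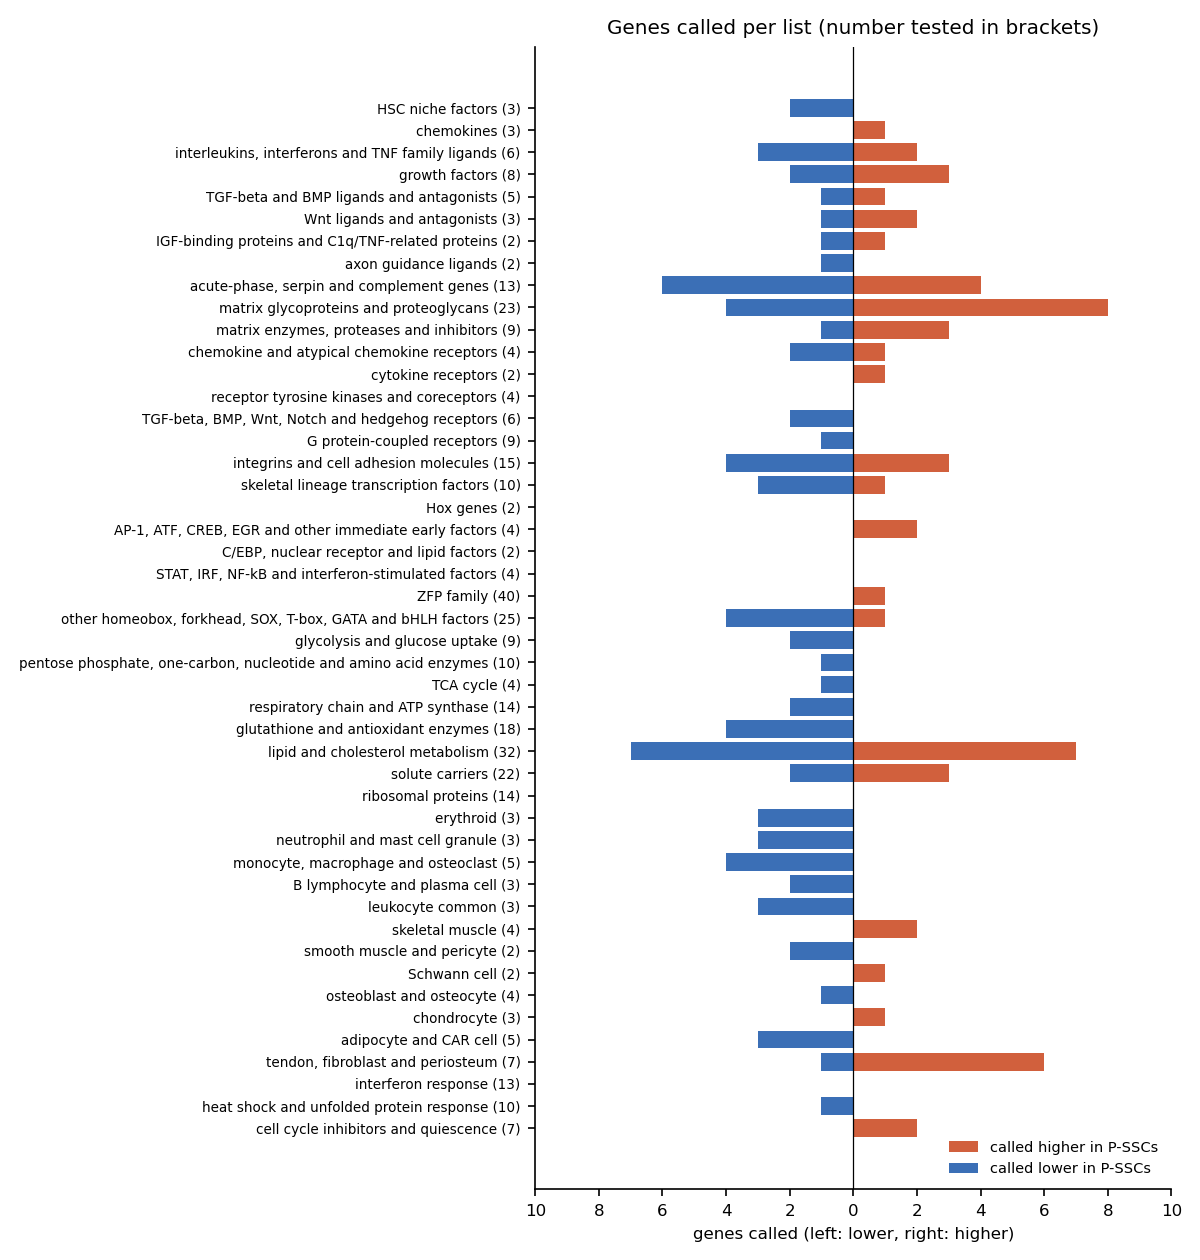
Bars give the number of genes called higher (right, orange) and lower (left, blue) in P-SSCs for each list with at least 2 genes tested, with the number tested in brackets. Matrix glycoproteins extend furthest to the right with 8 genes, followed by lipid metabolism, which extends equally both ways with 7, and by the tendon, fibroblast and periosteum list with 6, and the blood cell lists extend only to the left. Over all genes tested, 7.67% were called higher and 10.4% lower.

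Of 16 genes tested on 5 lists of blood cell markers, 14 were lower in P-SSCs. All 3 erythroid genes, all 3 granulocyte genes, 4 of 5 monocyte and macrophage genes, 2 of 3 B lymphocyte and plasma cell genes and all 3 common leukocyte genes tested were lower in P-SSCs, and none was higher, beside 10.4% lower of all genes tested. Of the 16 genes, 7 reached 1 FPKM in no P-SSC library, so they passed the filter through BM-MSCs alone and their direction was fixed by it. *Lyz2* counts among both granulocyte and monocyte genes, *Bpgm* also among glycolytic genes, and *Slc40a1* and *Sdc1* are also made by other cells. In bulk RNA, fewer contaminating cells and less RNA per cell cannot be told apart.

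The summed FPKM of the 4 erythroid genes in the table was 663 to 2298 in BM-MSC libraries and 17.6 to 34.6 in P-SSC libraries. *Hba-a2*, an alpha-globin gene, gave most of it, with 748, 618 and 2200.5 FPKM in BM-MSCs and 2.13, 7.09 and 20.2 FPKM in P-SSCs (log2 fold change -6.95 ± 0.70, adjusted p = 0.000258), and BM-MSC replicate 3 was the highest. As *Hba-a2* has a near-identical copy, the share of each copy is uncertain. *Kel*, a red cell membrane protein, had 4.26, 11 and 33.5 FPKM in BM-MSCs and no fragment in P-SSCs, at least 281-fold lower. BM-MSC replicate 3 held 552 of its 804 fragments, and without it the bound was 133-fold. *Hba-a2* had a log2 fold change of -6.27 without P-SSC replicate 1 and -7.65 without P-SSC replicate 3. *Kel* had a log2 fold change of -4.35 without BM-MSC replicate 1 and -2.99 without BM-MSC replicate 3, against -3.70 with all libraries.

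The 8 granulocyte genes in the table summed to 517 to 753 FPKM in BM-MSCs and 14.6 to 71.9 FPKM in P-SSCs. *Lyz2*, the lysozyme of myeloid cells, had 143, 539.5 and 608 FPKM in BM-MSCs and 14.2, 71.9 and 51.4 FPKM in P-SSCs (log2 fold change -3.22 ± 0.68, adjusted p = 0.0114). *Cybb*, the catalytic subunit of the phagocyte NADPH oxidase, had 31.7, 25.8 and 79.9 FPKM in BM-MSCs and no fragment in P-SSCs, at least 1285-fold lower, and 799-fold without BM-MSC replicate 3, which held 2165 of its 3679 fragments. P-SSC replicate 1 was the lowest in *Lyz2*. *Fcnb*, a ficolin of neutrophil precursors, had 22.5, 8.55 and 52.2 FPKM in BM-MSCs and 0.0631, 0 and 0 FPKM in P-SSCs, with 1 fragment in P-SSCs and a ratio of 1255 (95% interval 225 to 49608). *Mpo*, the peroxidase of neutrophil granules, was at 292 FPKM in BM-MSC replicate 1 and at 0 in the other 5 libraries, so it was not tested. *Lyz2* missed the threshold without BM-MSC replicate 2 or 3 and in 1 other setting (adjusted p up to 0.0621). *Lyz2* had a log2 fold change of -3.89 without BM-MSC replicate 1 and -2.55 without P-SSC replicate 1. *Fcnb* had a log2 fold change of -5.12 without BM-MSC replicate 2 and -3.88 without BM-MSC replicate 3, against -4.49 with all libraries.

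The 12 monocyte and macrophage genes in the table summed to 583 to 743 FPKM in BM-MSCs and 22.1 to 79.2 FPKM in P-SSCs, most of it from *Lyz2*, already counted among granulocyte genes, and *Slc40a1*. Without both, the remaining 10 genes summed to 15.9 to 27 FPKM in BM-MSCs and 3.56 to 5.2 FPKM in P-SSCs. *Spi1*, the factor PU.1 of myeloid cells and B cells, had 6.53, 2.43 and 9.95 FPKM in BM-MSCs and 0, 0.125 and 0 FPKM in P-SSCs (adjusted p = 0.00552). *Cd79b*, a chain of the B cell receptor, had 3.34, 3.2 and 7.18 FPKM in BM-MSCs and no fragment in P-SSCs, at least 113-fold lower. Most of the B lymphocyte and plasma cell sum came from *Sdc1*, and without it the other 10 genes of that list summed to 13.2 to 39.6 FPKM in BM-MSCs and 5.73 to 25.6 FPKM in P-SSCs, which overlap. *Ighm*, the heavy chain of IgM, had 9.21, 16.6 and 31.1 FPKM in BM-MSCs and 24.6, 14.4 and 5.71 FPKM in P-SSCs and was not called (adjusted p = 0.751). The 8 common leukocyte genes summed to 29.1 to 81.4 FPKM in BM-MSCs and 0.976 to 2.51 FPKM in P-SSCs. The monocyte and leukocyte sums were thus higher in each BM-MSC library. *Itgb2*, the integrin chain of white blood cells, had 9.15, 12.5 and 22.8 FPKM in BM-MSCs and 0, 2.13 and 0 FPKM in P-SSCs (log2 fold change -3.34 ± 0.58, adjusted p = 0.00471). *Ptprc*, which encodes CD45, the antigen gated out, had 0.326, 1.35 and 1.19 FPKM in BM-MSCs and no fragment in P-SSCs, too low for the test. *Jak3*, the kinase of lymphocyte cytokine receptors, was on no list and had 5.69, 5.43 and 14 FPKM in BM-MSCs and 0.61, 0 and 0 FPKM in P-SSCs (log2 fold change -2.88 ± 0.48, adjusted p = 0.00354).

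BM-MSC replicate 3 held the highest sum of the erythroid, granulocyte, monocyte and common leukocyte lists. Without it, 98 genes were called higher and 142 lower in P-SSCs, and 12 of the 14 blood cell genes called were still called, the exceptions being *Lyz2* and *Bpgm*. *Il1rn* and *C5ar1*, which P-SSCs also had less of, are made by white blood cells as well as by stroma, and the part of blood RNA in their values was not tested.

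**Figure D5:**
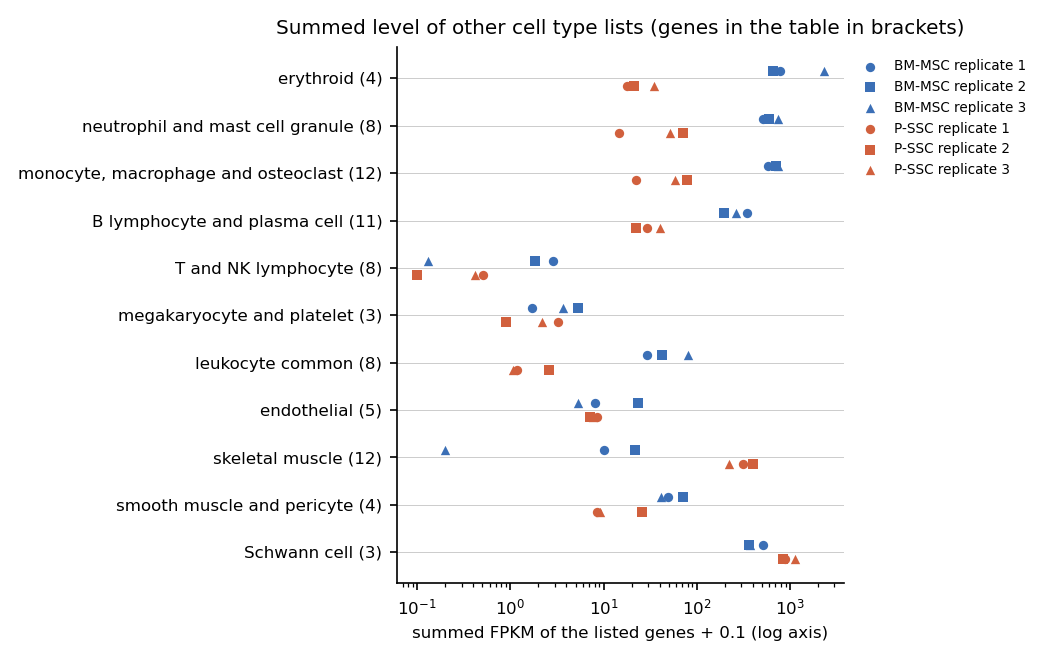
Each marker is the summed FPKM, plus 0.1 and on a log axis, of the genes of 1 list that are in the table, for 1 library, with BM-MSCs in blue and P-SSCs in orange. The erythroid, granulocyte, monocyte, B lymphocyte and common leukocyte sums are higher in all BM-MSC libraries, the skeletal muscle and Schwann cell sums are higher in all P-SSC libraries, and the endothelial sums overlap. Most of the B lymphocyte sum is *Sdc1*, most of the monocyte sum is *Lyz2* and *Slc40a1*, most of the muscle sum is *Mustn1*, and most of the Schwann cell sum is *Pmp22*. Without these genes the B lymphocyte and Schwann cell sums overlap between the groups.

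RNA of other neighbouring cells was measured in the same way. The table held 12 muscle genes, of which 4 were tested and 2, *Mustn1* and *Jsrp1*, were higher in P-SSCs. The sum of the 12 genes was 0.0997 to 21.9 FPKM in BM-MSCs and 219 to 400.1 FPKM in P-SSCs, and *Mustn1*, a nuclear protein of muscle and of regenerating bone, gave most of it, with 307, 372 and 210.4 FPKM in P-SSCs and 6.71, 15 and 0.0443 FPKM in BM-MSCs (log2 fold change 5.84 ± 0.85, adjusted p = 0.00189). The other 11 genes summed to 0.0553 to 6.91 FPKM in BM-MSCs and 7.47 to 28.5 FPKM in P-SSCs. *Jsrp1*, a protein of the membrane junctions of muscle fibres, had 1.51, 6.86 and 1.91 FPKM in P-SSCs and 0, 0.284 and 0 FPKM in BM-MSCs (log2 fold change 1.83 ± 0.48, adjusted p = 0.0303). The muscle fibre genes were low. *Atp2a1*, the calcium pump of fast fibres, had 0.828, 5.69 and 2.89 FPKM in P-SSCs and 0.256, 0.69 and 0 FPKM in BM-MSCs, and it was too low for the test. *Myl1*, a myosin light chain, had 1.77, 6.47 and 2.76 FPKM in P-SSCs and 1.72, 3.48 and 0 FPKM in BM-MSCs, overlapped between the groups and was not called (adjusted p = 0.429). Within P-SSCs both were highest in replicate 2. The part of muscle RNA in the values of P-SSCs was not tested. *Jsrp1* missed the threshold without BM-MSC replicate 1, 2 or 3 and in 1 other setting (adjusted p up to 0.117). *Mustn1* had a log2 fold change of 6.67 without BM-MSC replicate 2 and 4.71 without BM-MSC replicate 3.

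Of the Schwann cell genes, *Pmp22*, a myelin gene that fibroblasts also express, had 886, 817 and 1023 FPKM in P-SSCs and 502, 362 and 354 FPKM in BM-MSCs (log2 fold change 1.17 ± 0.21, adjusted p = 0.00547). *Mbp*, myelin basic protein, had 7.79, 27.8 and 108 FPKM in P-SSCs and 9.33, 1.93 and 19.5 FPKM in BM-MSCs and was not called (adjusted p = 0.266), and *Sox10*, the factor of these glia, had 0.524, 1.2 and 8.43 FPKM in P-SSCs. Both were highest in P-SSC replicate 3, and their sum, 1.93 to 19.5 FPKM in BM-MSCs and 8.32 to 116.7 FPKM in P-SSCs, overlapped between the groups. The table held 4 mural cell genes, and the tested ones, *Notch3* and *Cox4i2*, were lower in P-SSCs. The 1 endothelial gene tested was not called, none of the 8 T and NK cell genes in the table passed the filter, and the 1 megakaryocyte gene tested was not called.

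Lists of other cell states had the following counts, beside 7.67% higher and 10.4% lower of all genes tested. None of 13 interferon response genes was called, although 11 of them had a lower mean in P-SSCs and their median log2 fold change was -0.82. Of 10 chaperone genes of the heat shock and unfolded protein response, 1 was lower. Of 7 genes that hold cells out of the cycle or set entry into it, 2 were higher. *Cdkn1a*, the p21 inhibitor of cyclin-dependent kinases, had 342, 249 and 176 FPKM in P-SSCs and 70.3, 89.9 and 105 FPKM in BM-MSCs (log2 fold change 1.49 ± 0.28, adjusted p = 0.00666). *Ccnd2*, cyclin D2, had 117, 90.5 and 109 FPKM in P-SSCs and 58.7, 47.3 and 56.6 FPKM in BM-MSCs (log2 fold change 0.95 ± 0.21, adjusted p = 0.0147), so the called members of this list were an inhibitor and a cyclin. Each P-SSC library was above each BM-MSC library in both genes. *Cdk4*, a kinase that drives entry into the cycle, had 269.7, 241 and 304 FPKM in BM-MSCs and 207, 232 and 180.1 FPKM in P-SSCs, without overlap between the groups, and was not called (adjusted p = 0.232). *Ccnd2* missed the threshold without BM-MSC replicate 2 or P-SSC replicate 1 and in 1 other setting (adjusted p up to 0.0717).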

How the data were processed

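Bulk RNA was sequenced from sorted cells of WT mice. According to the submitters' notes, the authors processed reads with CASAVA and fastp, aligned them with STAR 2.6.1d to GRCm38, counted fragments with featureCounts 1.5.0-p3 and deposited FPKM values per gene. The files hold 8329 genes, and others were not analysed here. All values divided into whole fragments (tolerance 1e-06, 3609 genes above 0), which give the fragment totals, the floor of 3 fragments over a group and the 95% intervals, exact and for counting error only. Overlapping and antisense genes are uncertain because the use of strand in counting is not given in the sources used here.

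Genes with at least 1 FPKM in 3 of the 6 libraries were tested with limma 3.58.1 in R 4.3.3 on log2(FPKM + 1), a scale that understates the change of low genes, with a mean-variance trend and Benjamini-Hochberg adjustment at 0.05. The study's own test takes read counts and the deposited values are FPKM, so limma was used, and the recovered fragments entered 1 alternative only. The limma p-values measure the spread between 3 libraries a group, some of which combine mice. An exact two-sided permutation test of 3 against 3 libraries cannot go below p = 0.1. The script was tested on simulated data. Whether same-numbered libraries of the groups shared mice is not stated, so the main fit used no pairing. Deviations of same-numbered libraries correlated at -0.0238, 0.142 and -0.0241, which cannot settle it with so few libraries. Alternatives were a pseudocount of 0.1, no filter, a filter at 5 FPKM, median-of-ratios and quantile scaling, all 9 libraries in the fit, a replicate block, no trend and each library left out. limma-voom on recovered fragments was added after the data were seen.

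The members and lists were chosen with earlier results of these data known, and symbols that matched a list's pattern but not its meaning were taken out. Genes were named by rule: the markers given for these cells, the 15 largest differences each way with a mean of at least 10 FPKM and no overlap, up to 4 called genes of each list at a mean of at least 2 FPKM with up to 2 abundant ones not called, and genes of the study's question. *Anxa2*, *Atp2a1*, *C3*, *Cyp26a1*, *Ecm1*, *Emilin1*, *F3*, *Fabp5*, *Fdft1*, *Flnc*, *Fzd5*, *Heph*, *Id4*, *Jak3*, *Lgals1*, *Mpo*, *Ndfip1*, *Nox4*, *Npr1*, *Ogn*, *Orm1*, *Pla2g4a*, *Prdx1*, *Pvr*, *S100a4*, *Serpina3m*, *Serpinf1*, *Slc2a1*, *Sox10*, *Spon1*, *Thbs3*, *Tnfsf13*, *Twist1*, *Vim* and *Wisp1* were chosen after their values were seen. Some items are not reported here. Promoters were matched by symbol to RefSeq on GRCm38.p6.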

Additional observations from a re-analysis of the deposited data

How the results depend on the processing

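No gene called between P-SSCs and BM-MSCs was called in the opposite direction in any of the 15 alternatives. The 323 calls became 266 without a filter (244 of them shared) and 243 with a filter at 5 FPKM, which tested 229 of the 323 genes and called all of these. They became 309 with a pseudocount of 0.1, 326 with median-of-ratios scaling (157 higher and 169 lower), 333 with quantile scaling (160 higher and 173 lower), 323 without the trend, 464 with all 9 libraries in the fit and 298 with limma-voom on recovered fragments, added after seeing the data. The replicate block gave 318 calls, 137 higher and 181 lower, of which 291 were shared. Whether the numbers pair the samples is not known, so this fit is given for completeness. Leaving out 1 library gave 229 to 404 calls, 91 to 156 higher and 132 to 248 lower. The 91 came without BM-MSC replicate 2 and the 404 without P-SSC replicate 3, by fits that assume equal spread in the smaller group.

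Of the 111 named genes called, 82 were called in every alternative that tested them and 29 missed the threshold in 1 or more. Among the 22 named genes tested but not called, 7 changed sign. For *Gpx1*, a log2 fold change of 0.39 became -0.11 with quantile normalization. For *Id3*, a log2 fold change of -0.26 ranged from -0.53 to 0.093 with 1 library left out, with the sign changed without P-SSC replicate 3. For *Ighm*, a log2 fold change of -0.37 ranged from -0.82 to 0.15 with 1 library left out, with the sign changed without BM-MSC replicate 3 and without P-SSC replicate 3. For *Ndfip1*, a log2 fold change of 0.71 ranged from -1.07 to 1.64 with 1 library left out, with the sign changed without P-SSC replicate 3. For *Pgk1*, a log2 fold change of 0.02 ranged from -0.047 to 0.097 with 1 library left out, with the sign changed without BM-MSC replicate 1 and without P-SSC replicate 2. For *Sdha*, a log2 fold change of 0.04 ranged from -0.069 to 0.16 with 1 library left out, with the sign changed without BM-MSC replicate 3 and without P-SSC replicate 1. For *Slc2a1*, a log2 fold change of -0.08 ranged from -0.21 to 0.084 with 1 library left out, with the sign changed without BM-MSC replicate 1 and without P-SSC replicate 3, and it became 0.058 with median-of-ratios scaling and 0.025 with quantile normalization. The cause of these changes was not tested. A gene with no fragment in a group has only a bound on its fold, which depth sets.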

Other observations

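The following genes, in part outside the naming rule, were put side by side after their values were seen, and no list of genes was counted or tested for them. *Duox1*, a dual oxidase that releases hydrogen peroxide, had 26.6, 28.5 and 32.3 FPKM in P-SSCs and 0, 0 and 0.0312 FPKM in BM-MSCs, with 3 fragments in BM-MSCs and a ratio of 2757 (95% interval 943 to 13372). Its maturation factor *Duoxa1* had 66.5, 68.9 and 60.3 FPKM in P-SSCs and 0, 1.64 and 3.79 FPKM in BM-MSCs (log2 fold change 4.83 ± 0.54, adjusted p = 0.000455). *Nox4*, an oxidase of fibroblasts, had 13.6, 7.49 and 15.4 FPKM in P-SSCs and 0.0468, 0 and 0.0216 FPKM in BM-MSCs, with 3 fragments in BM-MSCs and a ratio of 560.1 (95% interval 191 to 2718). All P-SSC libraries were above all BM-MSC libraries in these 3 genes. The proton channel gene *Hvcn1*, which works beside the phagocyte oxidase, had 155, 205 and 147 FPKM in BM-MSCs and 8.04, 7.8 and 3.08 FPKM in P-SSCs (log2 fold change -4.61 ± 0.35, adjusted p = 8.22e-05). Like *Cybb*, *Hvcn1* is expressed in white blood cells, whose RNA was higher in BM-MSCs, and the part of that RNA in its values was not tested. *Duoxa1* had a log2 fold change of 4.22 without BM-MSC replicate 1.

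*Heph*, a ferroxidase that works with the iron exporter *Slc40a1*, had 44.7, 12.9 and 30.5 FPKM in BM-MSCs and 2.72, 3.07 and 3.78 FPKM in P-SSCs (log2 fold change -2.70 ± 0.47, adjusted p = 0.00476). *Vim*, vimentin, had 1667, 1823 and 1499 FPKM in P-SSCs and 457, 438 and 449 FPKM in BM-MSCs (log2 fold change 1.89 ± 0.18, adjusted p = 0.000212), and *Anxa2*, annexin A2, had 3346, 3565 and 2305 FPKM in P-SSCs and 791, 791 and 585 FPKM in BM-MSCs (log2 fold change 2.08 ± 0.24, adjusted p = 0.000564). Both were abundant in each library and did not overlap between the groups. *Flnc*, a filamin, had 20.7, 17 and 28.7 FPKM in P-SSCs and 0.0186, 1.02 and 0.696 FPKM in BM-MSCs (log2 fold change 3.90 ± 0.44, adjusted p = 0.000463), and *S100a4*, a calcium-binding protein of fibroblasts, had 5.95, 4.46 and 5.68 FPKM in P-SSCs and 0.71, 0.382 and 0.263 FPKM in BM-MSCs (log2 fold change 2.14 ± 0.37, adjusted p = 0.00457).

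P-SSC replicate 3 differed from the other P-SSC libraries in unrelated genes too. *Ndfip1*, an adaptor of ubiquitin ligases, had 5.77, 6.48 and 288 FPKM in P-SSCs and 22.7, 9.77 and 12 FPKM in BM-MSCs, and a mean of 162 FPKM in the graft P-SSC libraries. *Cilp2*, a relative of *Cilp*, had 2.29, 2.26 and 124 FPKM in P-SSCs and 0.0274, 0.0123 and 0.0254 FPKM in BM-MSCs, and a mean of 0.159 FPKM in the graft P-SSC libraries. *Cilp2* passed the threshold without P-SSC replicate 3 and in 1 other setting (adjusted p down to 0.00536).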
